A study of Caenorhabditis elegans with 22 samples.

Results

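The genes described here are 10 heat shock protein genes of Caenorhabditis elegans: hsp-16.1, hsp-16.2, hsp-16.41, hsp-16.48, hsp-70, hsp-12.2, hsp-12.3, hsp-12.6, hsp-43 and sip-1. They were chosen by name, as the rows of the deposited count table that carry these gene symbols, and are 10 of the 42048 genes in that table. PolyA RNA was sequenced from whole worms of the N2 laboratory strain, each library from a pool of larvae grown in synchrony and, after time zero, moved from bacterial plates into S-basal, a salt buffer without food. Ethanol libraries came from worms held in 5% ethanol for 1, 4 or 20 h, control libraries from worms held in the buffer with 0% ethanol for the same times, and time zero libraries from worms grown without ethanol. Each ethanol and control group had 3 libraries and time zero had 4, so 22 libraries in 7 groups. Ethanol and control worms therefore shared the move out of food, and the sample labels name no heat treatment.

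Heat shock proteins are chaperones that hold or refold damaged proteins. In C. elegans the transcription factor HSF-1 switches on the hsp-16 genes and hsp-70 when proteins misfold, so these genes are nearly silent in healthy worms and are widely used as stress reporters. The hsp-16 and hsp-12 genes, hsp-43 and sip-1 all encode small heat shock proteins, which share the alpha-crystallin domain and act without ATP. The hsp-12 genes encode the shortest of them, and hsp-12.6 is known as a target of DAF-16, the transcription factor of insulin signalling. sip-1 is known for its expression in oocytes and embryos.

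Library totals ran from 10908205 to 15302047 counts. On the first principal component of the deviations from group means, 6 libraries had scores above 10: time zero replicate 1, ethanol and control replicate 2 at 1 h, ethanol replicate 2 at 4 h, and ethanol replicate 3 and control replicate 1 at 20 h. The sign of the scores was set so that the oocyte and eggshell markers described below had positive weights on average. Libraries far on the other side were kept, such as control replicate 1 (-38.0) and ethanol replicate 1 (-26.1) at 1 h. Results that rest on the 6 libraries are given with and without them where the call or the size changed. The labels give the stage as L3, but the title of the series gives L4. The 15 oocyte and eggshell genes used as markers, which are known for expression in adult worms, summed to between 4682 and 11841 CPM (counts per 1000000 counts of the TMM-adjusted library size) at time zero, and 0 of the 15 was without counts there. These sums were not compared with worms of known stage, so the stage was not settled here. The labels speak of biological replicates but not of separate cultures, so the spread behind each p-value may be technical in part.

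Of the 10 genes, 8 had counts, and the same 8 passed the filter on low counts and were tested. hsp-16.1 and hsp-16.48 had 0 counts in all 22 libraries. A count of 0 allows up to 0.173 to 0.339 CPM, depending on the library, but the WBcel235 annotation gives each of these symbols to 2 genes, near-identical copies whose reads may not have been assigned to either. Their relatives hsp-16.11 and hsp-16.49, and the hsp-70 relatives F44E5.4 and F44E5.5, were also at 0 in all 22 libraries. Zero therefore says nothing about whether these genes were expressed. In the annotation, hsp-16.2 and hsp-16.41 lie next to each other on opposite strands, as do hsp-16.1 and hsp-16.48, while hsp-12.3 and hsp-12.6 are neighbours on the same strand.

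Levels of different genes were compared as CPM per kb of exon. sip-1 had the highest level of the 8 genes in all 7 groups, with means between 970 CPM per kb (ethanol at 4 h) and 1903 CPM per kb (control at 20 h), and its range over libraries never overlapped that of the next gene. At time zero hsp-43 (75.4 ± 6.07 CPM per kb, SD, n = 4) and hsp-12.2 (65.8 ± 13.8 CPM per kb) came next, and they did not differ beyond their spread. hsp-12.3 followed at 8.09 ± 1.83 CPM per kb. hsp-16.2 (4.57 ± 1.08 CPM per kb), hsp-70 (4.35 ± 0.360 CPM per kb) and hsp-16.41 (3.03 ± 0.586 CPM per kb) were close, each overlapping the next, and hsp-12.6 was lowest at 1.65 ± 0.314 CPM per kb. By 20 h that order had changed. hsp-12.6 was second in both groups, at 156 ± 62.9 CPM per kb in ethanol and 533 ± 176 CPM per kb in control (SD, n = 3 each), with hsp-12.3 behind it. In ethanol the ranges of hsp-12.6 and hsp-12.3 overlapped, so they did not differ beyond their spread, and in control the ranges were separate. Leaving out the TMM factors changed 0 of the 56 ranks.

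The stress-inducible genes hsp-70, hsp-16.2 and hsp-16.41 behaved alike at 4 h: their levels in ethanol stood far above those of the control, in which they had almost disappeared. hsp-70, which encodes the stress-inducible cytosolic Hsp70 chaperone, had 10.6, 8.82 and 13.2 CPM in ethanol at 4 h, against 0.522, 0.274 and 0.562 CPM in control. Behind these values stood 143, 127 and 162 counts in ethanol and 6, 4 and 8 counts in control. Every ethanol library lay far above every control library. The log2 fold change was 4.57 ± 1.23 (SE), with an adjusted p of 0.00711 from edgeR (quasi-likelihood F-test, adjusted by Benjamini-Hochberg over all genes). With limma-voom in its place the adjusted p was 0.0862.

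hsp-16.2, a small heat shock protein that binds unfolding proteins, had 3.33, 2.99 and 4.00 CPM in ethanol at 4 h, against 0.610, 0.617 and 0.211 CPM in control. hsp-16.41, its neighbour in the genome and a close relative, had 2.51, 2.71 and 3.75 CPM in ethanol, against 0.348, 0.206 and 0.562 CPM in control. For neither gene did the groups overlap. The changes on the log2 scale, 2.83 ± 1.21 for hsp-16.2 and 2.97 ± 1.34 for hsp-16.41, did not pass the threshold, with adjusted p of 0.0851 and 0.105. The outcome depended on the tool and on the libraries fitted. With DESeq2 both genes passed, with adjusted p of 0.0180 for hsp-16.2 and 0.0199 for hsp-16.41. In the edgeR fit to all 7 groups the spread of these genes came from the 20 h libraries as well, and with the 4 h ethanol and control libraries alone the adjusted p was 1.46e-05 for hsp-16.2 and 1.9e-05 for hsp-16.41.

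**Figure D1:**
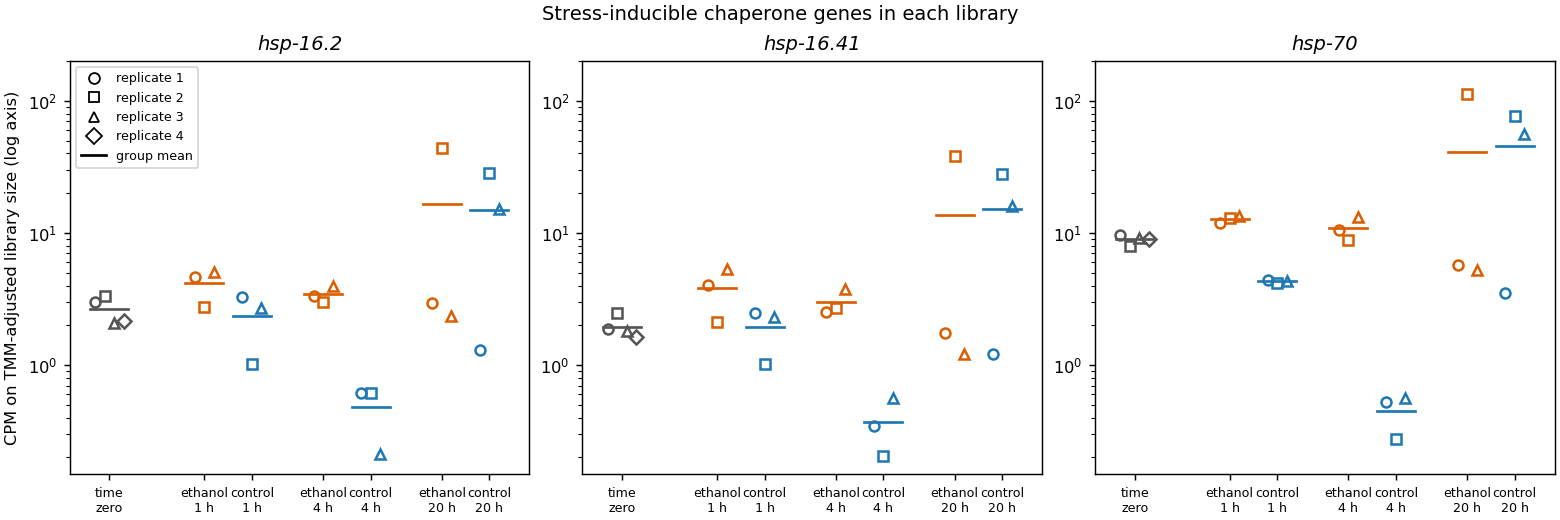
Expression of hsp-16.2, hsp-16.41 and hsp-70 in each of the 22 libraries, as CPM on a log axis, by group. Symbols mark replicate numbers and horizontal lines the group means. The 4 h control libraries lie lowest for each gene, and at 20 h ethanol replicate 2 lies above its mates and control replicate 1 below its mates.

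At 1 h the 3 genes were measured at intermediate distances. hsp-70 had 11.8, 12.9 and 13.4 CPM in ethanol, against 4.37, 4.18 and 4.35 CPM in control. The replicates were close within each group and the groups did not overlap, but the log2 fold change of 1.56 ± 0.94 had an adjusted p of 0.482 in the fit to all groups, and 0.00204 with the 1 h ethanol and control libraries alone. hsp-16.2 had 4.65, 2.74 and 5.07 CPM in ethanol, against 3.28, 1.02 and 2.71 CPM in control. hsp-16.41 had 4.03, 2.10 and 5.31 CPM in ethanol, against 2.46, 1.02 and 2.32 CPM in control. Both hsp-16 genes overlapped between the groups, with replicate 2 lowest in each, and their log2 fold changes of 0.79 ± 0.97 and 0.95 ± 1.05 did not pass (adjusted p of 0.769 and 0.745).

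The controls themselves changed with time. hsp-70 had 9.68, 7.92, 9.17 and 9.05 CPM at time zero, so that every control library at 1 and 4 h lay below every time zero library. The fall at 4 h was -4.29 ± 1.20 on the log2 scale (adjusted p = 0.00657; 0.0753 with limma-voom). At 1 h the change was -1.05 ± 0.90, which did not pass in the fit to all groups (adjusted p = 0.565) and did with the 1 h control and time zero libraries alone (adjusted p = 0.00188). hsp-16.2 had 2.98, 3.36, 2.07 and 2.17 CPM at time zero, and hsp-16.41 had 1.86, 2.48, 1.80 and 1.62 CPM. Their 4 h controls lay below every time zero library, with log2 fold changes of -2.46 ± 1.19 (adjusted p = 0.0964) and -2.36 ± 1.34 (adjusted p = 0.157). Ethanol libraries at 4 h were at 8.82 to 13.2 CPM for hsp-70 and 2.99 to 4.00 CPM for hsp-16.2, and both overlapped the time zero range. For hsp-16.41 they were at 2.51 to 3.75 CPM, above every time zero library. At 1 h the ethanol libraries of hsp-70, at 11.8 to 13.4 CPM, also lay above every time zero library. Those of hsp-16.2 and hsp-16.41 at 1 h overlapped the time zero range. No test was run on ethanol against time zero.

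At 20 h the replicates of each group disagreed more than the groups did. hsp-70 had 5.74, 112 and 5.29 CPM in ethanol, against 3.51, 77.3 and 56.3 CPM in control. Ethanol replicate 2 was thus the highest of all 22 libraries, while the other ethanol libraries lay close to the lowest control. hsp-16.2 had 2.94, 44.1 and 2.36 CPM in ethanol, against 1.30, 28.6 and 15.2 CPM in control. hsp-16.41 had 1.76, 38.1 and 1.21 CPM in ethanol, against 1.22, 28.1 and 16.06 CPM in control. All 3 genes shared the pattern: ethanol replicate 2 high, control replicates 2 and 3 high, and the remaining 3 libraries low. Within the ethanol group the highest library exceeded the lowest 21.2-fold for hsp-70, 18.7-fold for hsp-16.2 and 31.6-fold for hsp-16.41, and within the control group 22.004-fold, 22.04-fold and 23.01-fold.

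The ethanol against control comparison at 20 h gave log2 fold changes of -0.16 ± 0.83 for hsp-70, 0.11 ± 0.82 for hsp-16.2 and -0.16 ± 0.87 for hsp-16.41, with adjusted p between 0.886 and 0.920. The sign of these values, none of which passed, depended on single libraries. Without control replicate 2, for example, they were 0.45 for hsp-70, 0.98 for hsp-16.2 and 0.65 for hsp-16.41, and without control replicate 1 they were -0.71, -0.44 and -0.72. Leaving out ethanol replicate 1 or 3 turned hsp-70 and hsp-16.41 positive (0.41 to 0.45), and none of these 4 omissions gave a call. Ethanol replicate 2 was the library whose omission gave calls. Without it all 3 genes were lower in ethanol, by -3.05 for hsp-70 (adjusted p = 0.0013), -2.51 for hsp-16.2 (adjusted p = 0.00816) and -3.35 for hsp-16.41 (adjusted p = 0.0016). Control replicate 1 was 1 of the 6 libraries with high component scores named above, and ethanol replicate 2 was not. Without the 6 libraries with such scores, the changes were -0.21 for hsp-70, 0.07 for hsp-16.2 and -0.18 for hsp-16.41.

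Few other genes shared that pattern of libraries, among genes that reached 5 CPM in the high libraries. Ethanol replicate 2 lay at 5 CPM or more and at least 5-fold above both of its mates for 13 of the 15310 genes tested. Control replicate 1 lay at least 5-fold below both of its mates, each at 5 CPM or more, for 12 genes. Genes at lower levels could not meet these conditions. The genes that met both conditions were 4: hsp-70, hsp-16.2, hsp-16.41 and C18D11.6. At a 3-fold limit the numbers were 49, 40 and 6, with F26A3.4 and T22B7.7 added. These limits were set after the values were seen.

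Against time zero, the 20 h control was higher for all 3 inducible genes. The log2 fold changes were 2.35 ± 0.81 for hsp-70 (adjusted p = 0.0181), 2.50 ± 0.83 for hsp-16.2 (adjusted p = 0.0151) and 2.95 ± 0.91 for hsp-16.41 (adjusted p = 0.00927). Control replicates 2 and 3 lay above every time zero library and control replicate 1 lay below them all. Without control replicate 2 none of the 3 genes passed, with adjusted p of 0.107, 0.143 and 0.0786, and with limma-voom they had adjusted p of 0.179, 0.162 and 0.109. With no filter on low counts hsp-70 (0.0602) and hsp-16.2 (0.0515) did not pass and hsp-16.41 did (0.0346).

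The proportions of the 3 inducible genes were not constant. In the 4 h control the ratio of hsp-70 to hsp-16.2 counts was 0.857, 0.444 and 2.67, from 3 to 9 hsp-16.2 counts a library, against 2.36 to 4.43 at time zero. No test was run on these ratios. In the 18 libraries with at least 10 counts of hsp-16.2, the ratio of hsp-16.41 to hsp-16.2 counts stayed between 0.512 and 1.05, and that of hsp-70 to hsp-16.2 counts between 1.33 and 4.70. Over the 22 libraries, Pearson's r of log2 CPM was 0.985 between hsp-16.2 and hsp-16.41, and 0.946 between hsp-16.2 and hsp-70. These libraries share groups and depth, so the correlations describe the data and carry no test.

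hsp-12.6 and hsp-12.3, neighbouring genes for short small heat shock proteins, followed a different course: both were far higher in the 20 h control than at time zero, and both were lower in ethanol than in control at 20 h. hsp-12.6 was higher in the control than at time zero at 1, 4 and 20 h, and hsp-12.3 at 1 and 20 h but not at 4 h. hsp-12.6 had 71.3, 168 and 121 CPM in ethanol at 20 h, against 253, 479 and 497 CPM in control. It had stood at 1.12, 1.61, 1.26 and 1.08 CPM at time zero, so both 20 h groups lay far above the start. The log2 fold change between ethanol and control was -1.77 ± 0.32 (adjusted p = 8.09e-05), and that of the control against time zero was 8.31 ± 0.39 (adjusted p = 4.09e-13). Embryo and body wall muscle markers were also higher, and sperm markers lower, in the 20 h control than at time zero (6 of 7, 3 of 3 and 5 of 5 genes tested), and their part was not tested. In that comparison 55.1% of all genes tested passed, and 30.8% were higher.

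The lower level of hsp-12.6 in ethanol was already there at 4 h. The ethanol libraries then had 3.62, 2.15 and 4.00 CPM, against 12.28, 11.3 and 11.8 CPM in control. The groups were far apart, with a log2 fold change of -1.86 ± 0.35 (adjusted p = 0.000371), which passed when any library of either group was left out. At 1 h it had 2.46, 0.914 and 1.74 CPM in ethanol, against 4.44, 1.92 and 3.48 CPM in control, which overlapped (log2 fold change -0.94 ± 0.40, adjusted p = 0.237). In the controls hsp-12.6 was higher than at time zero at 1 h, by 1.39 ± 0.39 on the log2 scale (adjusted p = 0.0224), and at 4 h, by 3.20 ± 0.36 (adjusted p = 4.98e-07). The 1 h call ended without control replicate 1 or 3, or without time zero replicate 1, 3 or 4 (adjusted p up to 0.155), and with limma-voom (adjusted p = 0.133).

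hsp-12.3 had 39.0, 87.5 and 40.1 CPM in ethanol at 20 h, against 95.1, 216 and 200.4 CPM in control. The highest ethanol library, replicate 2, lay just below the lowest control library, replicate 1, and these were the same libraries that stood apart for the inducible genes. The log2 fold change was -1.62 ± 0.32 (adjusted p = 0.000207). At 4 h hsp-12.3 had 10.1, 6.53 and 7.26 CPM in ethanol, against 6.70, 7.13 and 8.50 CPM in control. That comparison gave 0.09 ± 0.34 on the log2 scale (adjusted p = 0.891), so at 4 h, unlike its neighbour, it did not pass.

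At 1 h hsp-12.3 was tightly grouped in ethanol at 7.59, 7.41 and 7.21 CPM, against 15.98, 8.48 and 10.7 CPM in control. The groups did not overlap, but the log2 fold change of -0.67 ± 0.34 did not pass (adjusted p = 0.345). Against time zero, where it had 3.91, 6.78, 5.03 and 5.80 CPM, the control was higher by 1.13 ± 0.32 at 1 h (adjusted p = 0.0221) and by 4.98 ± 0.33 at 20 h (adjusted p = 6.07e-11) on the log2 scale. The 1 h call was lost without control replicate 1, time zero replicate 1 or time zero replicate 3 (adjusted p of 0.155, 0.0844 and 0.0577) and with limma-voom (adjusted p = 0.0603). At 4 h the control lay 0.46 ± 0.32 above time zero, which did not pass (adjusted p = 0.246).

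The balance between these neighbours shifted with time and with ethanol. The ratio of hsp-12.6 to hsp-12.3 counts lay between 0.187 and 0.286 at time zero. At 4 h it was 0.330 to 0.551 in ethanol and 1.39 to 1.83 in control, so the groups were separate. At 20 h it was 1.83 to 3.01 in ethanol and 2.21 to 2.66 in control, where the groups overlapped. No test was run on this ratio.

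**Figure D2:**
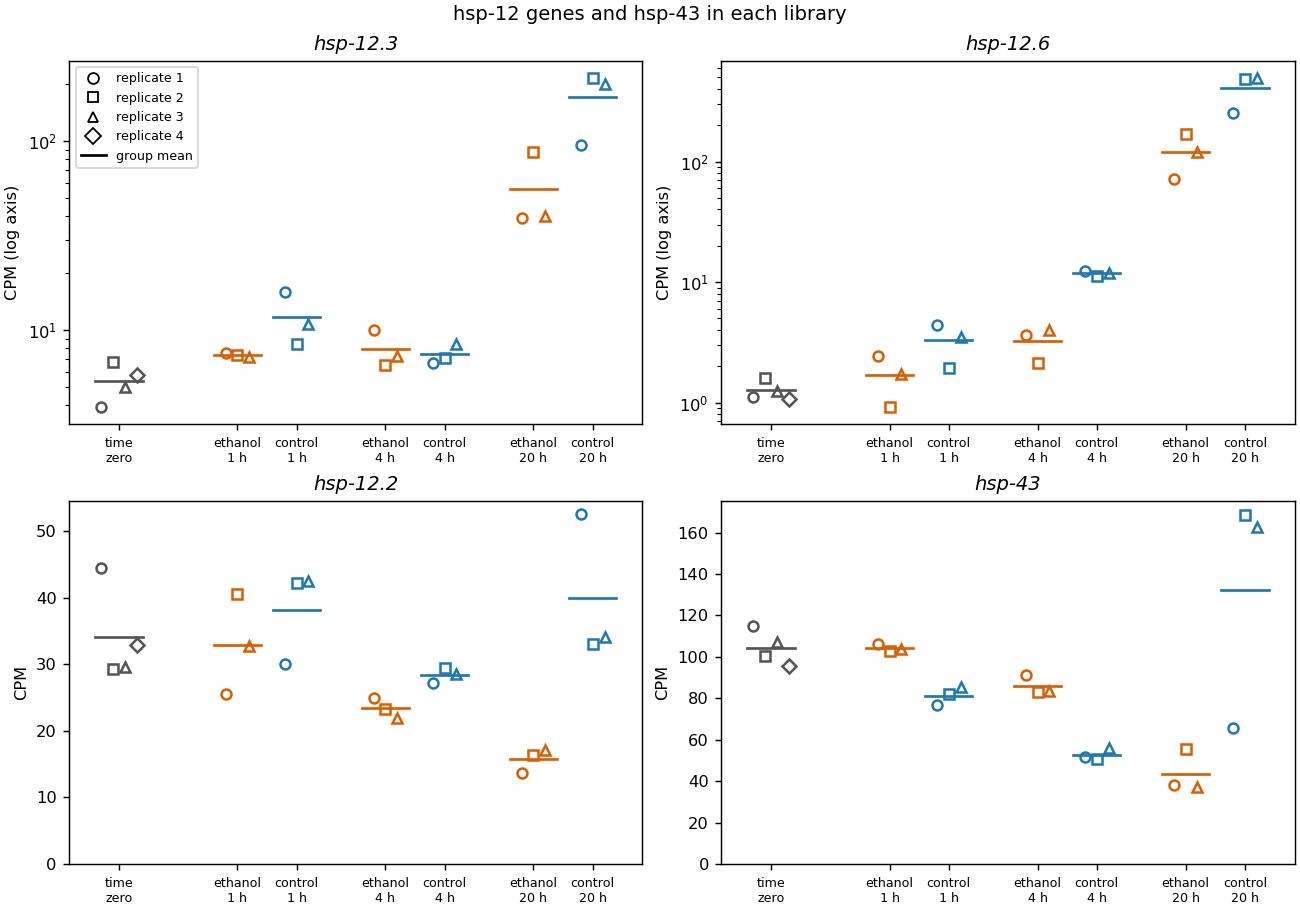
Expression of hsp-12.3, hsp-12.6, hsp-12.2 and hsp-43 in each library, as CPM, by group. The upper panels have a log axis and the lower panels a linear axis from 0, symbols mark replicate numbers and lines the group means. For each gene the 3 ethanol libraries at 20 h lie below the 3 control libraries at 20 h.

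hsp-12.2 and hsp-43 were well expressed from the start, and both were lower in ethanol at 20 h. hsp-12.2 had 13.7, 16.407 and 17.2 CPM in ethanol at 20 h, against 52.6, 33.1 and 34.1 CPM in control. All ethanol libraries lay below all controls, with a log2 fold change of -1.34 ± 0.21 (adjusted p = 1.91e-05). At time zero it had 29.3 to 44.6 CPM, and the control at 20 h did not differ from that beyond the spread (0.23 ± 0.19, adjusted p = 0.338). At 4 h it had 21.96 to 25.001 CPM in ethanol, against 27.2 to 29.5 CPM in control, without overlap, and the change of -0.28 ± 0.21 did not pass (adjusted p = 0.368). At 1 h the change was -0.21 ± 0.21 (adjusted p = 0.713).

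hsp-43, which encodes a longer small heat shock protein, moved in opposite directions at 4 and 20 h. At 4 h it had 91.1, 82.8 and 83.3 CPM in ethanol, against 51.8, 50.7 and 56.0 CPM in control. Ethanol was higher by 0.70 ± 0.23 on the log2 scale (adjusted p = 0.0263). The size hardly depended on any library, but the call was lost in 5 of the 6 fits that left out 1 library of either 4 h group, with adjusted p up to 0.0820. Time zero stood at 95.3 to 115 CPM, and the 4 h control was lower than that by -0.98 ± 0.22 on the log2 scale (adjusted p = 0.00115).

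By 20 h hsp-43 had 38.2, 55.4 and 37.3 CPM in ethanol, against 65.7, 169 and 163 CPM in control. Control replicate 1 was again the low one, yet all controls stayed above all ethanol libraries (log2 fold change -1.60 ± 0.24, adjusted p = 8.15e-06). Against time zero the 20 h control did not pass (0.34 ± 0.21, adjusted p = 0.191), and it was higher by 0.66 without control replicate 1 (adjusted p = 0.0003) and by 0.75 without the 6 libraries with scores above 10 (adjusted p = 2.1e-05). At 1 h it had 106, 103 and 104 CPM in ethanol, against 76.5, 82.1 and 85.2 CPM in control. These did not overlap, and the change of 0.36 ± 0.23 did not pass (adjusted p = 0.528).

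sip-1, the most abundant of the genes, was lower on average in ethanol at each time, but its spread between libraries was as large as these differences. It had 489, 1115 and 573 CPM in ethanol at 1 h, against 575, 1274 and 1077 CPM in control. At 4 h it had 500.3, 843 and 518 CPM in ethanol, against 908, 841 and 839.9 CPM in control. At 20 h it had 818, 800.3 and 1099 CPM in ethanol, against 1394, 1071 and 1187 CPM in control. The groups overlapped at each time, with log2 fold changes of -0.43 ± 0.31, -0.48 ± 0.31 and -0.43 ± 0.31 and adjusted p of 0.605, 0.294 and 0.268.

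In each group the library with the most sip-1 was also the library with the highest sum of the 15 oocyte and eggshell genes, in 7 of 7 groups. That sum ran from 4719 to 12249 CPM in ethanol and from 5572 to 14995 CPM in control at 1 h, from 4845 to 6608 CPM in ethanol and from 6396 to 6789 CPM in control at 4 h, and from 5320 to 7454 CPM in ethanol and from 7072 to 9572 CPM in control at 20 h. Of the 15 genes, at 1 h 0 passed in edgeR (1 had an unadjusted p under 0.05), at 4 h 1 was lower in ethanol, and at 20 h 1 was higher and 2 were lower. Over all genes tested, 6.67%, 30.5% and 53.2% passed at these times. In whole worms, fewer oocytes or embryos and less RNA per cell cannot be told apart, and the part of these markers in the sip-1 levels was not tested. Without the 6 libraries with scores above 10, sip-1 was lower in ethanol by -0.76 at 4 h (adjusted p = 0.00276) and by -0.49 at 20 h (adjusted p = 0.0385), and the 4 h control was higher than time zero by 0.54 (adjusted p = 0.00748). Each of these 6 was the library with the most sip-1 in its group, and no 4 h control was among them. The omission thus lowered sip-1 in ethanol at 4 h and at time zero by the choice of libraries, and these values are no independent support.

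**Figure D3:**
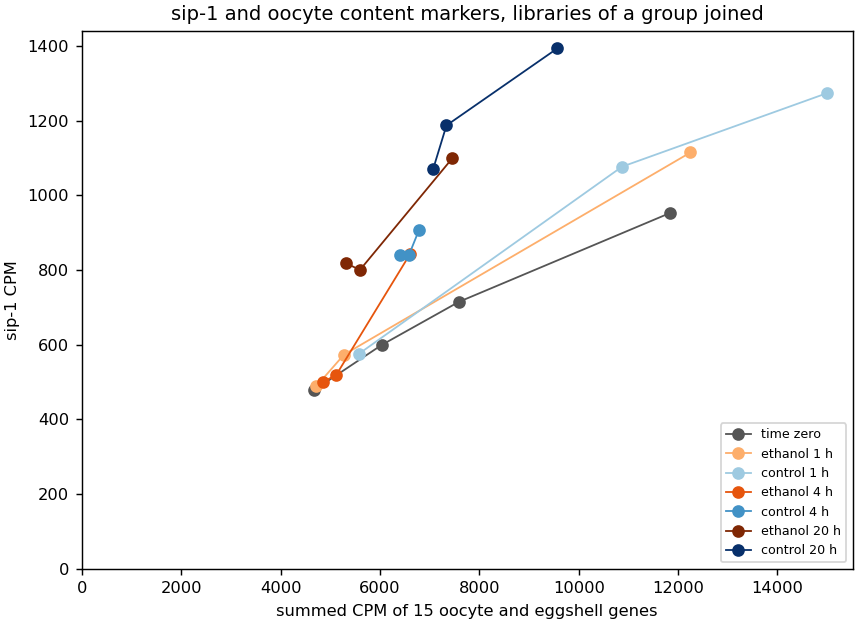
sip-1 level (CPM) against the summed CPM of 15 oocyte and eggshell genes in each library, with the libraries of a group joined in order of the sum. Within each of the 7 groups the library farthest to the right is also the highest, and at similar sums the 20 h libraries lie above those of time zero.

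Against time zero, where it had 479 to 953 CPM, sip-1 was higher in the 20 h control by 0.83 ± 0.29 on the log2 scale (adjusted p = 0.0201). The groups did not overlap, but the call was lost without time zero replicate 2, time zero replicate 4 or control replicate 1 (adjusted p of 0.0645, 0.0519 and 0.0707), and with no filter on low counts (0.0517). At 1 and 4 h the controls differed from time zero by 0.51 ± 0.29 and 0.33 ± 0.29, which did not pass (adjusted p of 0.355 and 0.365).

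Counted over the genes, ethanol against control gave 0 of 8 past the threshold at 1 h, where 6.67% of all genes tested passed, and 3 of 8 without overlap between the groups, against 18.9% of all genes. That 0 came from edgeR, DESeq2 and limma-voom alike, and 1 of 8, hsp-12.6, had an unadjusted p under 0.05 in edgeR. Each of these fits took in all 7 groups, so the spread included that of the 20 h libraries. With the 1 h ethanol and control libraries alone, 1 of 8, hsp-70, passed in edgeR. At 4 h hsp-70 and hsp-43 were higher and hsp-12.6 was lower, 3 of 8 against 30.5% of all genes (17.1% higher and 13.4% lower), and 6 of 8 did not overlap, against 54.3%. At 20 h hsp-12.2, hsp-12.3, hsp-12.6 and hsp-43 were lower and 0 were higher, 4 of 8 against 53.2% of all genes (28.1% lower and 25% higher), and 4 of 8 did not overlap, against 55.4%. In number, these shares were near those of all genes at 4 and 20 h. For the controls against time zero, 2 of 8 were higher at 1 h (5.33% of all genes were), 1 was higher and 2 were lower at 4 h (46.2% of all genes passed, 22.9% higher and 23.3% lower), and 6 of 8 were higher at 20 h (55.1% passed, 30.8% higher).

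The median log2 fold change of ethanol over control for the 8 genes was 0.07 at 1 h (-0.01 for all genes tested), 0.40 at 4 h (0.00 for all genes) and -0.88 at 20 h (-0.06 for all genes). The calls at 4 h went both ways, with hsp-70 and hsp-43 higher in ethanol and hsp-12.6 lower.

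**Figure D4:**
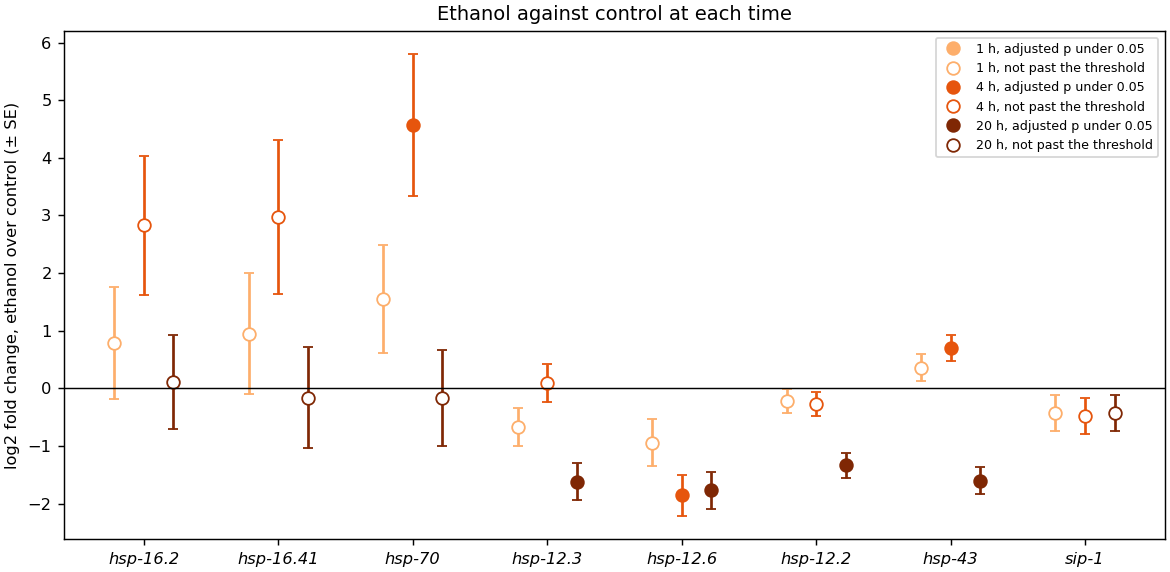
Log2 fold change of ethanol over control (± SE from edgeR) for the 8 genes with counts at 1, 4 and 20 h. Filled points had an adjusted p under 0.05: hsp-70, hsp-43 and hsp-12.6 at 4 h, and hsp-12.2, hsp-12.3, hsp-12.6 and hsp-43 at 20 h.

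Whether the ethanol effect itself changed between times was tested as a difference of log2 fold changes. Between 1 and 4 h 0 of 8 genes passed, where 13.1% of all genes did, although hsp-70 had an effect larger by 3.01 ± 1.58 at 4 h (adjusted p = 0.267). DESeq2 and limma-voom also gave 0, and 0 had an unadjusted p under 0.05 in edgeR. With the 1 and 4 h ethanol and control libraries alone, hsp-70 (adjusted p = 5.3e-05), hsp-16.2 (adjusted p = 0.0336) and hsp-16.41 (adjusted p = 0.0462) passed. Between 4 and 20 h 4 of 8 genes passed, all lower, beside 32.4% of all genes (16.9% lower). The effect on hsp-43 was lower at 20 h by -2.30 ± 0.33 (adjusted p = 1.69e-05), a change from a higher to a lower level in ethanol. For hsp-12.2 it was lower by -1.06 ± 0.30 (adjusted p = 0.00877), and for hsp-12.3 by -1.71 ± 0.46 (adjusted p = 0.00669).

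For hsp-70 the effect at 20 h was below that at 4 h by -4.73 ± 1.51 (adjusted p = 0.0206). That call was lost without control replicate 2 at 4 h (adjusted p = 0.0557), with limma-voom (0.0626), with no filter on low counts (0.0654) and with the 4 groups alone (0.0951). hsp-16.2 and hsp-16.41 did not pass (-2.72 ± 1.47 and -3.13 ± 1.62, adjusted p of 0.172 and 0.151) and passed without ethanol replicate 2 at 20 h (adjusted p of 0.001 and 0.0003). For hsp-12.6 the difference of 0.09 ± 0.45 did not pass (adjusted p = 0.905), which does not show that the effects were equal. Between 1 and 20 h 2 of 8 genes passed, hsp-12.2 at -1.13 ± 0.30 (adjusted p = 0.00487) and hsp-43 at -1.96 ± 0.33 (adjusted p = 7.41e-05), beside 35.7% of all genes (20.2% lower). Without ethanol replicate 2 at 20 h, 6 of the 8 passed.

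Markers of worm content moved beside the 20 h results. Over all genes tested, 28.1% were lower and 25% higher in ethanol at 20 h, and 13.4% were lower at 4 h. Of 9 embryo genes, 7 were tested and 6 of these were lower in ethanol at 20 h, with sums of 12.9 to 15.8 CPM in ethanol and 47.8 to 74.1 CPM in control. med-1 was at 0 counts in ethanol, but it had only 5 counts over all 22 libraries and was not tested. Body wall muscle genes summed to 908 to 1302 CPM in ethanol and 3987 to 4817 CPM in control, with 3 of 3 lower. Epidermal genes summed to 77.9 to 175 CPM in ethanol and 943 to 1327 CPM in control, with 2 of 3 lower. That sum was mostly the collagen gene col-19, with 391412 counts over all libraries, against 3532 for dpy-7 and 361 for rol-6. It is thus mainly the level of 1 gene. Sperm genes summed to 42.9 to 46.8 CPM in ethanol and 4.43 to 5.68 CPM in control, with 5 of 5 higher. At 4 h the embryo genes had sums of 6.94 to 8.21 CPM in ethanol and 21.3 to 30.5 CPM in control, with 4 of 7 lower. The part of these markers in the lower hsp-12 and hsp-43 levels was not tested. Such markers also separated the 20 h control from time zero. Over all genes tested, 55.1% passed in that comparison and 30.8% were higher. Embryo genes summed to 47.8 to 74.1 CPM in the 20 h control and 5.57 to 8.47 CPM at time zero, with 6 of 7 higher. Body wall muscle genes summed to 3987 to 4817 CPM in the 20 h control and 1610 to 2888 CPM at time zero, with 3 of 3 higher. Sperm genes summed to 4.43 to 5.68 CPM in the 20 h control and 114 to 125 CPM at time zero, with 5 of 5 lower. Epidermal genes summed to 943 to 1327 CPM in the 20 h control and 1747 to 2403 CPM at time zero, with 1 higher and 2 lower. Their part in the changes of hsp-12.3, hsp-12.6 and the inducible genes since time zero was not tested.

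Outside the 10 genes themselves, the genes whose pattern over the 22 libraries was most like that of hsp-16.2, hsp-12.6 and sip-1 were found by Pearson's r of log2(CPM + 1) among 9939 genes with a mean of at least 5 CPM. For hsp-16.2 they were nhr-17 (r = 0.897), clec-1 (r = 0.851) and M05D6.5 (r = 0.844). nhr-17, a nuclear hormone receptor gene, had 31.1 to 102 CPM in ethanol and 17.9 to 172 CPM in control at 20 h. For hsp-12.6 they were F35C8.5 (r = 0.975), Y22D7AL.15 (r = 0.973) and C32F10.4 (r = 0.971). C32F10.4 averaged 181 ± 21.6 CPM in ethanol and 346 ± 62.9 CPM in control at 20 h (SD, n = 3 each), and 18.6 ± 0.446 CPM at time zero (n = 4). For sip-1 they were ctns-1 (r = 0.950), C09G9.1 (r = 0.949) and Y23H5A.2 (r = 0.942). These r values are descriptions over libraries that share groups and depth.

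Among the other small heat shock protein genes, 7 of 9 were tested, and in ethanol 2 were higher at 1 h, 3 were higher at 4 h, and 3 were higher and 4 lower at 20 h, while 6.67%, 30.5% and 53.2% of all genes passed. F08H9.3 and F08H9.4, which encode hsp-16-like proteins, were nearly absent without ethanol. At 1 h F08H9.3 had 23 counts over the ethanol libraries and 1 over the controls, a ratio of 20.4 with an exact 95% interval of 3.31 to 839, and F08H9.4 had 19 and 1, a ratio of 16.8 (2.68 to 699). At 4 h F08H9.4 had 22 counts in ethanol and 3 in control, a ratio of 7.36 (2.21 to 38.4). These intervals cover counting error only.

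F08H9.3 went on to 1.70 to 2.92 CPM in ethanol at 4 h, against 0 to 0.174 CPM in control (4.45 ± 0.66 on the log2 scale, adjusted p = 2.35e-05). At 20 h it had 4.96, 11.9 and 6.38 CPM in ethanol, against 0.305, 0.424 and 0.649 CPM in control (4.05 ± 0.49, adjusted p = 5.53e-07). Unlike hsp-16.2 and hsp-16.41, its groups did not overlap at 20 h. hsp-12.1 went the other way at 20 h, with 0.587 to 0.633 CPM in ethanol and 9.39 to 23.7 CPM in control (-4.87 ± 0.41, adjusted p = 3.3e-09). hsp-17 and hsp-25 were picked for the plot of the family after their values were seen. At 20 h hsp-17 averaged 26.4 ± 10.7 CPM in ethanol and 4.90 ± 1.25 CPM in control (SD, n = 3 each). At time zero hsp-17 had 20.4 to 23.7 CPM, so every 20 h control lay below every time zero library. Its ethanol libraries at 20 h, at 21.7, 38.6 and 18.98 CPM, overlapped the time zero range. The control was already low at 4 h, at 2.96 to 5.21 CPM. hsp-25 averaged 64.2 ± 11.2 CPM in ethanol and 171 ± 40.7 CPM in control at 20 h (SD, n = 3 each).

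**Figure D5:**
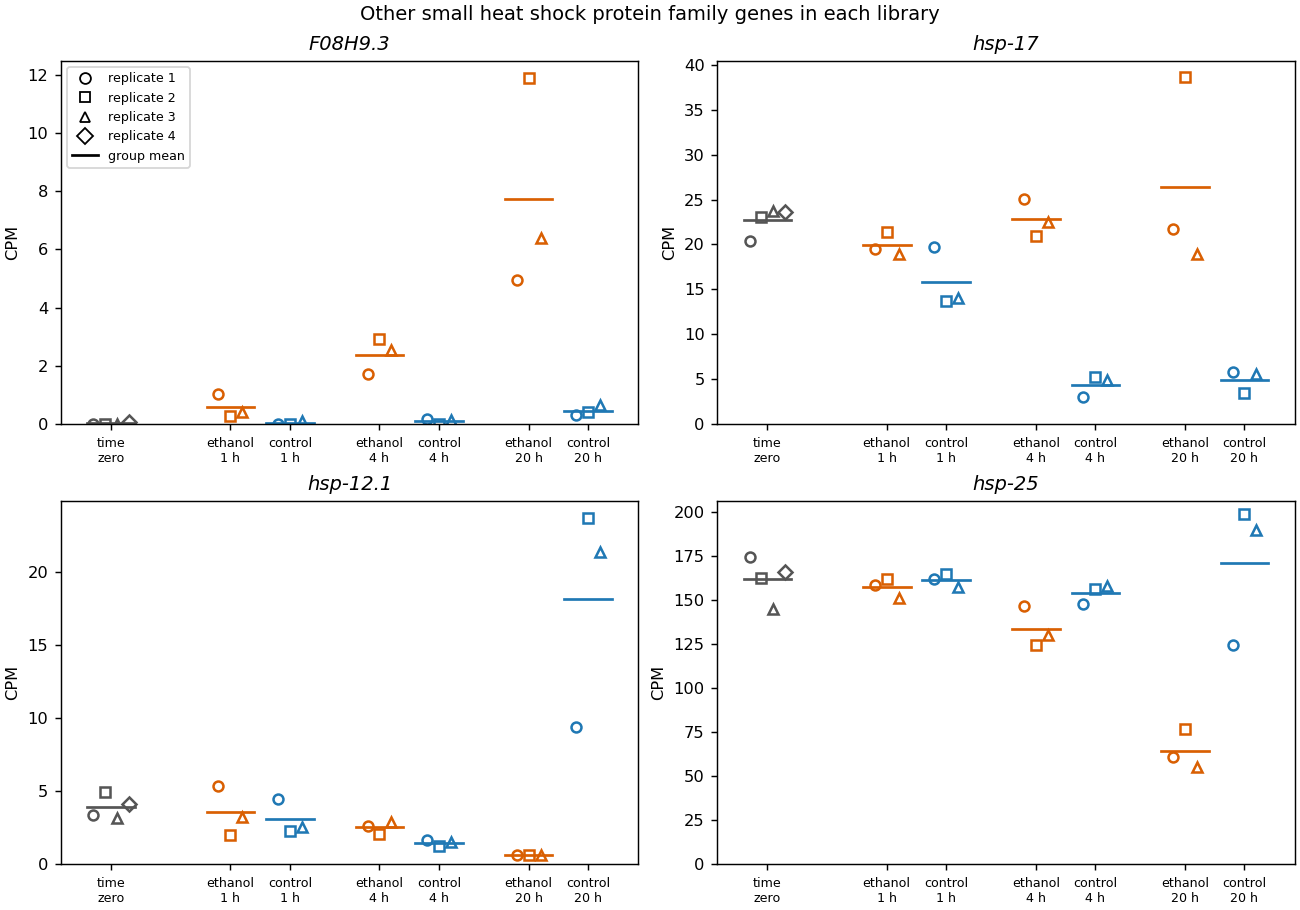
Expression of F08H9.3, hsp-17, hsp-12.1 and hsp-25 in each library, as CPM on linear axes from 0, by group. Symbols mark replicate numbers and lines the group means. At 20 h all ethanol libraries lie above all controls for F08H9.3 and hsp-17, and below all controls for hsp-12.1 and hsp-25.

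Of 10 other hsp70 family genes, 8 were tested. In ethanol 2 were higher at 1 h, 4 were higher and 1 lower at 4 h, and 3 were higher and 1 lower at 20 h, beside 6.67%, 30.5% and 53.2% of all genes past the threshold. The share at 20 h was near that of all genes. T14G8.3, an hsp70 family gene, had a log2 fold change of 0.59 ± 0.16 at 1 h (adjusted p = 0.0287) and of 3.25 ± 0.17 at 4 h (adjusted p = 2.44e-11), where it averaged 272 ± 12.15 CPM in ethanol and 28.7 ± 3.40 CPM in control. hsp-4 and hsp-3, the BiP chaperones of the endoplasmic reticulum, were higher at 20 h by 1.96 ± 0.22 (adjusted p = 2.4e-07) and 1.63 ± 0.28 (adjusted p = 4.3e-05). At 20 h, where hsp-70 split by library, hsp-4 had 775 to 817 CPM in ethanol and 188 to 230 CPM in control. Both BiP genes were already apart at 4 h. hsp-4 then had 1510 to 1725 CPM in ethanol and 214 to 227 CPM in control, and hsp-3 had 1417 to 1586 CPM and 192 to 200 CPM. F11F1.1, a relative of hsp-70, changed sign: it was higher in ethanol by 0.98 ± 0.28 at 1 h (adjusted p = 0.0401) and lower by -4.71 ± 0.38 at 4 h (adjusted p = 8.19e-09).

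HSF-1 and its regulators are the upstream genes of the pathway. Over all genes tested, 6.67% passed at 1 h, 17.1% were higher in ethanol at 4 h and 25% were higher at 20 h. Of 5 tested in this list, 0 passed at 1 h in edgeR, with 0 at an unadjusted p under 0.05. In ethanol 1 gene was higher at 4 h and at 20 h. That gene was hsf-2, a heat shock factor gene of low level, with 41 counts in ethanol and 11 in control at 4 h (1.86 ± 0.55 on the log2 scale, adjusted p = 0.0129), and 69 and 9 counts at 20 h (2.66 ± 0.54, adjusted p = 0.000299). hsf-1 itself averaged 63.4 ± 18.0 CPM in ethanol and 54.5 ± 1.21 CPM in control at 4 h, and did not pass at any time.

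Of 15 cytosolic co-chaperone and Hsp90 genes, 1 was higher in ethanol at 1 h, 3 were higher at 4 h, and 7 were higher and 1 lower at 20 h. Over all genes tested, 6.67% passed at 1 h, 30.5% at 4 h (17.1% higher and 13.4% lower) and 53.2% at 20 h (25% higher and 28.1% lower). In number these shares were near or below those of all genes, but at 20 h the calls of the list were mostly higher. unc-23, which encodes a BAG-domain co-chaperone of Hsp70, averaged 35.1 ± 7.15 CPM in ethanol and 12.9 ± 1.41 CPM in control at 1 h (1.45 ± 0.16, adjusted p = 2.02e-06). It was also higher at 4 h (1.39 ± 0.16, adjusted p = 7.24e-07), beside dnj-12, a DnaJ gene (0.40 ± 0.09, adjusted p = 0.00225). Like hsp-70, unc-23 had been higher at time zero, at 44.8 ± 5.18 CPM (n = 4), than in the controls at 1 and 4 h. At 20 h the 2 with the highest changes were aip-1, an arsenite-inducible gene (0.92 ± 0.20, adjusted p = 0.000656), and ZC395.10, which encodes the Hsp90 co-chaperone p23 (0.70 ± 0.18, adjusted p = 0.00303).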

How the data were processed

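The authors deposited raw counts, as whole numbers for each gene, for 22 polyA libraries of whole N2 worms. Per the submitters' processing notes, their tools were featureCounts, Subread 2.0.3, STAR 2.7.9a, fastp 0.23.2 and Trimmomatic 0.39, and the build was ce10. How strand and multiply mapped reads were handled is not given in the sources used here, so counts of near-identical genes, such as the hsp-16 genes, and of overlapping genes are uncertain. Neighbours and exon lengths were taken from WBcel235, and no coordinates are given. Promoter and protein sequences were not analysed here.

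Groups, times and replicate numbers came from the labels. Within groups, libraries differed by chi-square values of 2.07 to 126 per degree of freedom, so each was taken as 1 replicate. The filterByExpr step (minimum count 10, minimum total 15) left 15310 genes, of the 23391 with any count among 42048, with 99.9% of the counts. The model, in edgeR 4.0.16 under R 4.3.3, took in all 22 libraries, with TMM factors, 1 mean per group, robust dispersions and two-sided quasi-likelihood F-tests. An adjusted p (Benjamini-Hochberg over all genes tested) under 0.05 was the threshold. Every adjusted p is from this test unless another fit is named, and SE is the size of the log2 fold change divided by the square root of F. CPM uses TMM-adjusted library sizes and is given as mean ± SD. Limits for a count of 0 stand for 3 counts and cover counting error only. The steps were tested on simulated counts.

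The genes and lists were chosen with earlier results of these data known. All 10 genes are named in each comparison where they had counts, and from each other list at most the 2 largest changes past the threshold at each ethanol time. Alternatives were DESeq2 1.42.0, limma-voom (limma 3.58.1), other scaling factors, other filters, dispersions without the robust option, only the groups compared, a replicate block, each library left out in turn and, chosen after the data were seen, leaving out the 6 libraries with scores above 10.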

Additional observations from a re-analysis of the deposited data

Results flagged for a closer look

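For 4 genes the effect of ethanol differed between times by the test of the difference itself. On the log2 scale, the effect at 20 h lay below that at 4 h by -4.73 for hsp-70, -1.06 for hsp-12.2, -1.71 for hsp-12.3 and -2.30 for hsp-43. Against the effect at 1 h, it was lower by -1.13 for hsp-12.2 and by -1.96 for hsp-43. The hsp-70 call was lost with limma-voom (adjusted p = 0.0626), without a filter on low counts (0.0654), with the 4 groups alone (0.0951) and without control replicate 2 at 4 h (0.0557). hsp-43 changed sign, from a higher level in ethanol at 4 h to a lower one at 20 h. At time zero, the group of 4 libraries, no library stood apart for any of the 8 genes with counts by Dixon's test, and groups of 3 were not tested for this.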

How the results depend on the processing

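hsp-12.2, hsp-12.3, hsp-12.6 and hsp-43 at 20 h, and hsp-12.6 at 4 h, passed under each alternative run. Of 8 genes, ethanol at 4 h gave 5 calls with DESeq2 and 5 with only the groups compared, and the 4 h control against time zero 5 and 5. With only the groups compared, ethanol at 1 h gave 1 call (620 genes in all), and its effect at 4 against 1 h gave 3. For the 1 h control against time zero, 0 passed with limma-voom and 1 with the replicate block, and for the 20 h control 3 with limma-voom, 3 without a filter and 3 with the block. The block ended the calls of hsp-12.6 at 1 h (adjusted p = 0.0873) and of hsp-16.2 (0.0616), hsp-70 (0.0783) and sip-1 (0.0669) at 20 h. Without the 6 libraries ethanol at 1 h gave 1550 genes. Leaving out single libraries gave 0 to 2 calls (control, 1 h) and 3 to 6 (control, 20 h) against time zero, 4 to 7 for ethanol at 20 h and 2 to 6 for its effect at 20 against 1 h. Correlations of same-numbered ethanol and control deviations were 0.792, 0.801 and -0.205 at 1 h. They ran from -0.109 to 0.0119 at 4 h and from -0.506 to 0.251 at 20 h. The labels do not say whether equal replicate numbers mark paired libraries.

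These values changed sign, all of them below the threshold except where single libraries are left out at 20 h. For the 1 h control against time zero, hsp-16.41 was -0.0517 with DESeq2, -0.0294 with limma-voom, -0.0282 with relative log expression factors, -0.0561 with upper-quartile factors and -0.0190 with library sizes alone, and hsp-16.2 was 0.21 without the 6 libraries. For ethanol at 20 h hsp-16.2 was -0.40 with limma-voom and -0.11 with the replicate block. For the difference between 20 and 1 h, sip-1 was -0.0383 with upper-quartile factors, -0.0559 with minimum count 50 and -0.00204 with only the groups compared; between 20 and 4 h it was -0.00633 with minimum count 50, and hsp-12.6 was -0.42 without the 6 libraries. With single libraries left out, the ranges were -0.48 to 0.18 for hsp-16.2 and -0.20 to 0.29 for hsp-16.41 (control, 1 h), -0.0216 to 0.39 for hsp-12.2 (control, 20 h), -0.11 to 0.22 for hsp-12.3 (ethanol, 4 h), and -2.51 to 0.98 for hsp-16.2, -3.35 to 0.65 for hsp-16.41 and -3.05 to 0.45 for hsp-70 (ethanol, 20 h). For differences of the effect they were -3.30 to 0.19 for hsp-16.2 and -0.21 to 0.41 for sip-1 (20 against 1 h), -0.23 to 0.40 for hsp-12.6 and -0.0806 to 0.34 for sip-1 (20 against 4 h), and -0.22 to 0.0846 for hsp-12.2 and -0.33 to 0.34 for sip-1 (4 against 1 h). Apart from the calls that hang on 1 library, the cause of these changes was not tested. Promoter motifs and protein identity, with the alternative set for them, were not run. The 4 h controls held 15 to 19 counts of each inducible gene, which limits those fold changes.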

Other observations

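C18D11.6, F26A3.4 and T22B7.7 were singled out after their values were seen, because their 20 h libraries were ordered like those of hsp-70. C18D11.6 had 4, 131 and 5 counts in the ethanol libraries at 20 h, against 5, 86 and 64 counts in the control libraries, and between 0 and 11 counts in each of the other 16 libraries. F26A3.4 had 70.7, 251 and 67.1 CPM in ethanol at 20 h, against 89.9, 396 and 338 CPM in control. T22B7.7 had 25.5, 100.2 and 27.1 CPM in ethanol at 20 h, against 26.2, 99.6 and 106 CPM in control. Its time zero libraries, at 234 to 362 CPM, were higher than all of these, unlike those of hsp-70.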
